A study of Homo sapiens with 6 samples.

Results

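The genes described here encode the machinery that reads mRNA into protein: 58 protein-coding genes, of 19987 on chromosomes that hold peaks, for translation initiation, elongation and release factors and for cytosolic and mitochondrial tRNA synthetases. They were listed by name and function, with no threshold on a measured value, although earlier results of these data were known when the list was made. A gene was scored by the V5 peaks that lay over its annotated span or within 1000 bp of it, in each library separately. The study mapped TAF2 carrying the V5 peptide tag on chromatin by chromatin immunoprecipitation and sequencing (ChIP-seq) in HepG2-TAF2-V5, a clone of the established human liver cancer line HepG2. All libraries come from this line, so every control carries the tagged protein too, and no second clone or untagged line enters. There were 3 libraries from the V5 immunoprecipitation, each with a peak list, and 3 control libraries. The labels call a control both input DNA, in the title, and IgG, in the library name, and no peaks of the controls were analysed here. How the tagged TAF2 was expressed in the clone is not given in the sources used here.

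TAF2 is a subunit of TFIID, the complex that recognises core promoters and begins the assembly of RNA polymerase II at the start of genes. Translation begins when the eIF4 factors bring a capped mRNA to the small ribosomal subunit, which carries eIF2, eIF3 and the initiator tRNA. Elongation factors then deliver the charged tRNAs that the tRNA synthetases make, and a release factor ends the chain. Many genes of this machinery are among the most actively transcribed of dividing cells, and a subset starts its transcripts with a run of pyrimidines, the terminal oligopyrimidine (TOP) motif, through which growth signals control their translation.

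The V5 lists held 1599, 2557 and 1887 peaks in replicates 1, 2 and 3, with a median width of 220 to 224 bp. The fold of a peak is the authors' linear ratio over the background of their caller. It served to set peaks of the same list against each other, where a percentile of 100 is the strongest. No read totals come with the lists, and depth is therefore unknown. Whether each library had its own culture is not stated in the labels.

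Peaks at these genes took 2 forms, shown here by the sequence from 200 bp before the annotated start to 10 bp into the transcript (RefSeq, GRCh38.p14, 5′ to 3′ in the direction of transcription). In the first form a peak, mostly a narrow one, lay on the promoter itself. Capitals mark the bases under the peak, and at TARS1, where 2 libraries had one, the bases under both peaks. These 5 genes are shown as examples of peaks with a summit within 250 bp of a start, and their summits ran from 109 bp before it to 5 bp after it. EIF5 and EIF6 had such peaks too, with summits 69 and 25 bp before the start, but at percentiles 7.8 and 2.5 of their lists, and are not printed. The lowest-ranked of the 5 printed was that of ETF1, at percentile 17.1. EIF4A2, printed further below, also had such a peak in replicate 2. It was 448 bp wide, with its summit 134 bp after the start. The intervals are chr5:33440765-33440974, plus strand for TARS1, chr1:220093932-220094141, plus strand for IARS2, chr3:184314406-184314615, plus strand for EIF4G1, chr2:99337189-99337398, plus strand for EIF5B and chr5:138543227-138543436, minus strand for ETF1.
TARS1: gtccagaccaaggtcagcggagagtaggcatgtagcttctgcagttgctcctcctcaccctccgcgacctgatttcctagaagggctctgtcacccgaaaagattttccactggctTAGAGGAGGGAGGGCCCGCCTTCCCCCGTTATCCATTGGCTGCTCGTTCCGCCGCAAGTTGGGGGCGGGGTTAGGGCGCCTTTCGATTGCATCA
IARS2: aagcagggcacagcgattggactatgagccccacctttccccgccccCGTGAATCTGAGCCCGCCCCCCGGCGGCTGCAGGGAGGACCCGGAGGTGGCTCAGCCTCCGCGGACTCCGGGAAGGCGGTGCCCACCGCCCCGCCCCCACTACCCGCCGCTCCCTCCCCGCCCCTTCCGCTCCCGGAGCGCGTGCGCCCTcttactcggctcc
EIF4G1: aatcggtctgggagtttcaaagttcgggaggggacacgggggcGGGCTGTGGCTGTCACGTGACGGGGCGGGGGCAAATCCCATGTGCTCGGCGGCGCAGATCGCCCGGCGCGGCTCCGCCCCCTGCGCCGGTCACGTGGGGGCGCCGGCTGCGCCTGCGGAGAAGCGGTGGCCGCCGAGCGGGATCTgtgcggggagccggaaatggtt
EIF5B: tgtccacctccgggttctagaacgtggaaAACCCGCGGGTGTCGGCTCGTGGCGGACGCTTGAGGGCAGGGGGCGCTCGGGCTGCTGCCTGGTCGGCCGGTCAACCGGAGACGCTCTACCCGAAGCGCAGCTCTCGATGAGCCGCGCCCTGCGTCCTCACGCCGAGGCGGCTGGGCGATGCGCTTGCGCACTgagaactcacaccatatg
ETF1: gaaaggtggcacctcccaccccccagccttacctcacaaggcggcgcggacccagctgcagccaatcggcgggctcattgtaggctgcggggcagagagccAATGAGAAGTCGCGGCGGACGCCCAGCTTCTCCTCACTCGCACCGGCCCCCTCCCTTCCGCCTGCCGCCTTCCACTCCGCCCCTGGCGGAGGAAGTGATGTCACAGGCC

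In the other form the peak or peaks lay inside the gene, downstream of the start where that is known. The forms did not divide the genes cleanly. EIF4A1 and PABPC1 had a single internal peak, and EIF4A2 and ETF1 had peaks of both forms. The promoters of the 3 genes with a known start that had such peaks in at least 2 libraries are shown because their transcripts begin with the same 5 bases. Capitals mark these first 5 transcribed bases and, at EIF4A2, TATAAA. The intervals are chr6:73521023-73521232, minus strand for EEF1A1, chr3:186783377-186783586, plus strand for EIF4A2 and chr12:53006256-53006465, plus strand for EIF4B. The windows of EEF1A1 and EIF4B held no peak, and that of EIF4A2 lay wholly under a peak of replicate 2.
EEF1A1: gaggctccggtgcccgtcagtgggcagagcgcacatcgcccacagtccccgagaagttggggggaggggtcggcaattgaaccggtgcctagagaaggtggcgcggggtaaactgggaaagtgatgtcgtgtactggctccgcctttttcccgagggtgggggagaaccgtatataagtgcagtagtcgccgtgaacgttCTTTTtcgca
EIF4A2: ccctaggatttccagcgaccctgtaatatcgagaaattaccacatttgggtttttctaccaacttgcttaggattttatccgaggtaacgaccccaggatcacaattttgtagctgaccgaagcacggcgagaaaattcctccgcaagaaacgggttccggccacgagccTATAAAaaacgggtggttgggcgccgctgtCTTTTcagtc
EIF4B: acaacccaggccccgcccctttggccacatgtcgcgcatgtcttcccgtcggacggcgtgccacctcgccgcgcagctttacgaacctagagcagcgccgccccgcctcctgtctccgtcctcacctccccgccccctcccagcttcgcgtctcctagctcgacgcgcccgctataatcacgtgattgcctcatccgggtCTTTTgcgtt

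Of the 58 genes, 13 had a peak in any library (22.4%, against 8.67% of all protein-coding genes) and 6 in at least 2 libraries (10.3%, against 3.76%). The 6 were EEF1A1 and EIF4A2, with peaks in 3 libraries, and TARS1, EIF3A, EIF4B and ETF1, with peaks in replicates 1 and 2 and none in replicate 3. Peaks of 3 libraries were present at 1.9% of all protein-coding genes. By library, 8 of the genes had a peak in replicate 1 (13.8%, against 3.7% of all genes), 9 in replicate 2 (15.5%, against 5.75%) and 4 in replicate 3 (6.9%, against 4.87%). Replicate 3, which was not the shortest list, thus named the fewest of these genes. Without replicate 1 or without replicate 2, only EEF1A1 and EIF4A2 kept a peak in both remaining libraries. The share also fell with stricter peaks: with a -log10 q of at least 3, EEF1A1, EIF3A and EIF4A2 remained (5.17%, against 2.9% of all genes), and at 5 or more EEF1A1 alone (1.72%, against 1.91%). No test was made of these shares, since the genes are a chosen list and the controls came without peaks. The counts by group given below stand against the same 8.67% and 3.76% of all genes, and each rests on few genes.

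**Figure D1:**
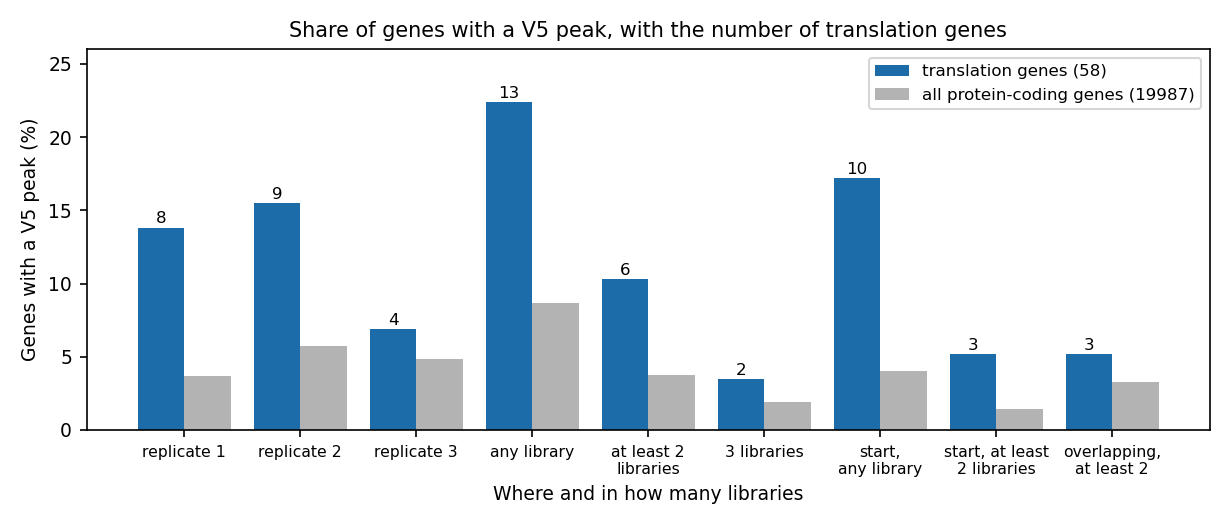
Percent of genes with a V5 peak over the span or within 1000 bp (left 6 pairs), within 1000 bp of a start, and with overlapping peaks of at least 2 libraries. Blue bars are the 58 translation genes, with their number above, and grey bars all 19987 protein-coding genes; the blue bar is 22.4% for any library and 6.9% in replicate 3.

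Among the elongation factors, 1 of 7 genes had a peak. EEF1A1 (chromosome 6, 73515750 to 73521032, minus strand) encodes eEF1A, which brings aminoacyl-tRNA to the ribosome and is among the most abundant proteins of a cell. It had 2 peaks in replicate 1 (folds 5.06 and 5.47), 2 in replicate 2 (4.15 and 4.29) and 3 in replicate 3 (5.33, 6.47 and 4.68). The strongest peak ranked at percentile 64.3 of its list in replicate 1, 19.0 in replicate 2 and 83.2 in replicate 3, a mean of 55.5 ± 33.0 (SD, n = 3), so that replicate 2 stood far below the other two. All 7 summits lay inside the gene, 976 to 2769 bp after the start. A stretch of 256 bp (73519877 to 73520132), 900 to 1155 bp after the start, was covered by a peak in each library. The peaks over it ranked at percentile 64.3, 19.0 and 36.2 in replicates 1, 2 and 3. The strongest peak of replicate 3 thus lay outside this stretch. The remaining peaks, 1 each in replicates 1 and 2 and 2 in replicate 3, did not overlap each other. The other elongation genes had no peak within 1000 bp: EEF1A2, the form of neurons and muscle, EEF1B2, EEF1D and EEF1G, which form the exchange factor of eEF1A, EEF2, the translocase, and EIF5A.

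The eIF4 group binds the cap, unwinds the mRNA leader and links it to the poly(A) tail. Including PABPC1, 5 of its 9 genes had a peak in any library, the most of the groups here. The share of all protein-coding genes was 8.67%. In at least 2 libraries it was 2 of the 9, EIF4A2 and EIF4B, against 3.76% of all genes. EIF4A2 (chromosome 3, 186783577 to 186789897) encodes one of the paired eIF4A helicases and hosts small nucleolar RNA genes in its introns. It had 2 peaks in replicate 1 (folds 5.31 and 5.73), 2 in replicate 2 (4.84 and 6.99) and 3 in replicate 3 (4.42, 4.52 and 5.11). The strongest ranked at percentile 71.5, 84.0 and 51.6, a mean of 69.0 ± 16.3 (SD, n = 3), above the median of the list in each library. By -log10 q the same 3 peaks ranked at percentile 52.8, 70.8 and 29.6, so that the peak of replicate 3 was below the median of its list. The peak of replicate 2 with fold 4.84 ran from 219 bp before the start to 228 bp after it and covered the TATAAA that begins 30 bp before the start. The summits of the other 6 peaks lay 671 to 1930 bp after the start, and 54 bp (186784680 to 186784733) were under a peak in each library. The peaks over this stretch ranked at percentile 60.4, 84.0 and 30.1 by fold in replicates 1, 2 and 3. There the peak of replicate 3 was thus below the median of its list, and the strongest peaks of replicates 1 and 3 lay elsewhere. Of the 6 peaks, that of replicate 2 with fold 6.99 overlapped a small RNA gene, SNORD2. The strongest peaks of replicates 1 and 3 lay between SNORD2 and SNORA63B and overlapped neither.

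EIF4A1 (chromosome 17, 7572825 to 7579006), the other eIF4A helicase gene, had a single peak, in replicate 1 (fold 5.69, percentile 69.7), with its summit 1006 bp after the start. It also lay over the readthrough transcript SENP3-EIF4A1, and the nearest small RNA gene, SNORA48, was 779 bp away. EIF4B (chromosome 12, 53006456 to 53042215), whose product stimulates the helicase, had 2 peaks in replicate 1 (folds 4.27 and 4.10) and 2 in replicate 2 (4.44 and 5.19). They lay inside the gene, 1369 to 4871 bp after the start. No peak of one library overlapped a peak of the other, and the smallest gap between them was 467 bp. EIF4G1 (chromosome 3, 184314606 to 184335358), the scaffold that joins cap, helicase and poly(A)-binding protein, had a peak in replicate 2 only (fold 4.66, percentile 31.4), 145 bp wide, with its summit 81 bp before the start. PABPC1 (chromosome 8, 100702916 to 100722088), the poly(A)-binding protein gene, had a peak in replicate 2 only (fold 4.87, percentile 38.3), inside the gene, 1603 bp from its upper annotated end. EIF4A3, EIF4E, the cap-binding protein gene, EIF4G2 and EIF4H had none.

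Of 8 eIF3 genes, which encode subunits of an initiation factor carried by the small ribosomal subunit, only EIF3A (chromosome 10, 119033670 to 119080817) had peaks. There were 2 in replicate 1 (folds 4.67 and 4.54) and 2 in replicate 2 (5.13 and 4.50), all inside the gene with summits 1214 to 2374 bp from its upper annotated end. No peak of one library overlapped a peak of the other, and the smallest gap between them was 9 bp. EIF3B, EIF3C, EIF3D, EIF3E, EIF3F, EIF3H and EIF3I had none.

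Of the 8 genes for eIF2 and for the factors of start codon choice and subunit joining, 3 had a peak, each in 1 library and each on the promoter. EIF5 (chromosome 14, 103334237 to 103345025), the GTPase activator of eIF2, had a peak in replicate 2 (fold 3.80, percentile 7.8), with its summit 69 bp before the start and within the divergent noncoding gene EIF5-DT. EIF5B (chromosome 2, 99337389 to 99401326), the GTPase that joins the ribosomal subunits, had a peak in replicate 3 (fold 5.79, percentile 71.5), 109 bp before the start and 884 bp from the end of TXNDC9. EIF6 (chromosome 20, 35278906 to 35284772), which keeps the large subunit from joining early, had a peak in replicate 3 (fold 3.09, percentile 2.5), near the bottom of that list, 25 bp before the first of its 2 annotated starts. EIF1, EIF1AX and the 3 subunit genes of eIF2, EIF2S1, EIF2S2 and EIF2S3, had none.

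The tRNA synthetases, which charge each tRNA with its amino acid, had a peak at 1 of 19 cytosolic and 1 of 6 mitochondrial genes. Over all protein-coding genes the share was 8.67% in any library and 3.76% in at least 2. Such small counts do not set the synthetase genes apart from all genes. Of the 13 genes with a peak, only TARS1 and IARS2 were synthetase genes, and the others encode translation factors. TARS1 (chromosome 5, 33440696 to 33468091), the cytosolic threonine enzyme, had a peak in replicate 1 (fold 5.85, percentile 73.2) and in replicate 2 (fold 4.76, percentile 34.9) and none in replicate 3. The summits lay 5 bp after and 55 bp before the second of its 2 annotated starts, and the peaks shared 113 bp. TARS1 was the only gene of the 58 with overlapping peaks of 2 libraries on the promoter itself. IARS2 (chromosome 1, 220094132 to 220148041), the mitochondrial isoleucine enzyme, had the highest-ranked of the 33 peaks, in replicate 1 only (fold 6.96, percentile 88.5), 95 bp before the start. Of the other cytosolic genes AARS1, CARS1, EPRS1, FARSA, FARSB, GARS1, HARS1, IARS1, KARS1, LARS1, MARS1, NARS1, QARS1, RARS1, SARS1, VARS1, WARS1 and YARS1, none had a peak. The same held for the mitochondrial AARS2, LARS2, NARS2, TARS2 and VARS2.

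The release factor gene ETF1 (chromosome 5, 138506095 to 138543236), which encodes the protein that reads stop codons, had a peak in replicate 1 deep inside the gene (fold 4.31, percentile 27.3), 13048 bp after the nearest start. Its peak in replicate 2 (fold 4.21, percentile 17.1) lay on the promoter, 45 bp before the start. The 2 peaks were 14498 bp apart, so ETF1 was repeated as a gene and not as a place.

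**Figure D2:**
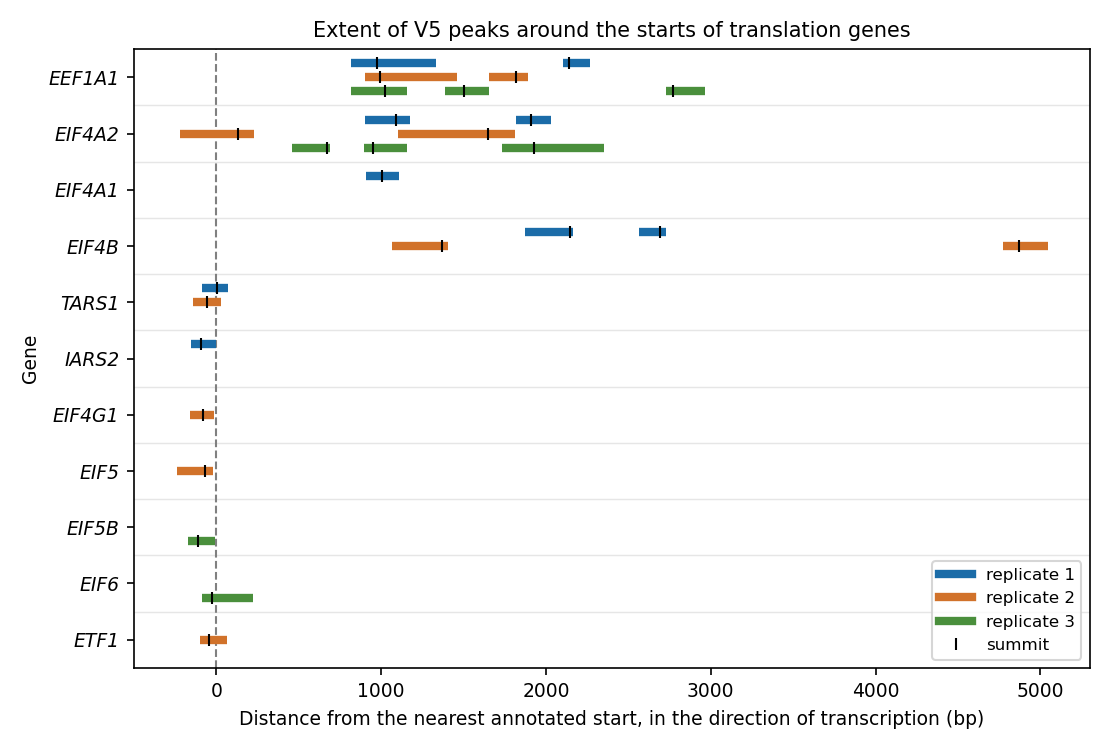
Extent of each peak (bars, coloured by V5 replicate) and its summit (black tick) in bp from the nearest annotated start, in the direction of transcription, for the 11 genes with a peak and a start in the table. Peaks of EEF1A1, EIF4A1 and EIF4B, and all but 1 of EIF4A2, lie inside the gene, while those of TARS1 and EIF6 span the start and those of IARS2, EIF4G1, EIF5 and EIF5B end 4 to 20 bp before it; the peak of ETF1 in replicate 1, at 13048 bp, is off the axis.

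Peaks of at least 2 libraries overlapped by at least 1 bp at only 3 of the 58 genes, EEF1A1, EIF4A2 and TARS1 (5.17%, against 3.26% of all protein-coding genes). Within 1000 bp of a start, or of either annotated end for the 12 genes whose start is not in the table, 10 genes had a peak in any library (17.2%, against 4.0% of all genes) and these 3 had one in at least 2 (5.17%, against 1.41%). With stricter peaks the count of 3 fell to 1 at a -log10 q of at least 3. It fell to 0 at a -log10 q of at least 5, at a fold of at least 5 and among the strongest 1000 peaks of each list. The share of all genes with such stricter peaks at starts is not given here, so this fall cannot be set against theirs. The peaks that met this window at EEF1A1 lay near its far edge, with summits 976, 992 and 1024 bp after the start. At EIF4A2 the summits of such peaks were spread over it, at 134, 671, 952 and 1092 bp. Between 250 bp before and 50 bp after the start, TARS1 alone had peaks of 2 libraries.

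Of the 33 peaks at these genes, 28 belonged to genes with a known start. Summits fell 1 to 150 bp before the start in 7 cases (25.0%, against 10.2% of 3510 pairs of a peak and a protein-coding gene) and 1000 to 3000 bp after it in 13 (46.4%, against 17.1%). None lay farther than 150 bp before the start (against 17.1%), and 2 lay over 3000 bp after it (against 46.8%). Of the 19 summits more than 250 bp from a start, 18 were those of EEF1A1, EIF4A1, EIF4A2 and EIF4B. The 9 peaks with summits within 250 bp of a start had a median width of 165 bp (145 to 448 bp), against 269 bp (160 to 709 bp) for the 19 others. The widest of the 9 were those of EIF4A2 (448 bp) and EIF6 (309 bp). Peaks of one gene are not independent of each other, and how far downstream a summit can lie is set by the length of the gene.

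**Figure D3:**
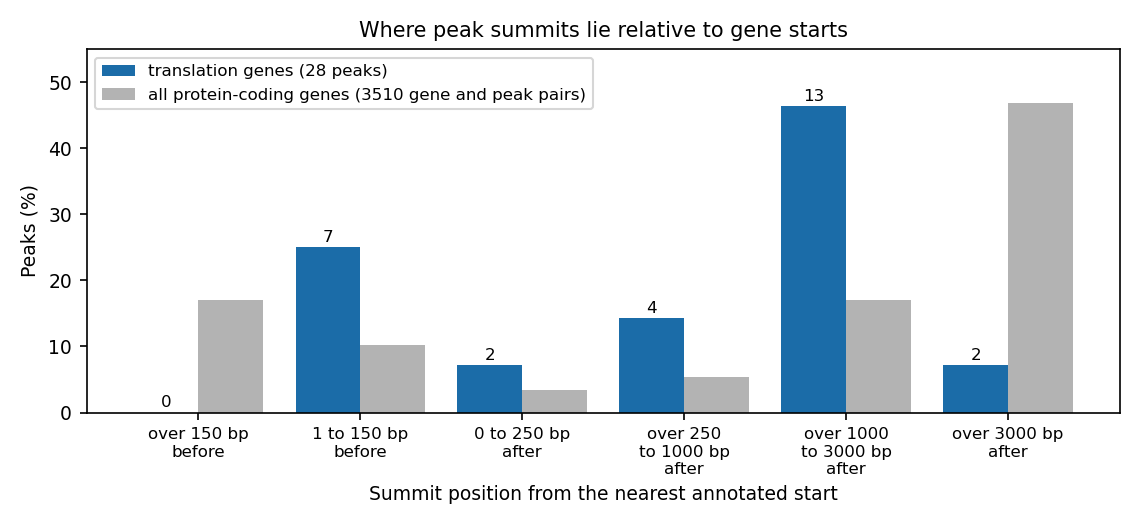
Percent of peaks by the position of the summit from the nearest annotated start, for the 28 peaks of translation genes with a known start (blue, with their number) and the 3510 pairs of a peak and any protein-coding gene (grey). The blue bars are highest at 1000 to 3000 bp after the start (46.4%) and at 1 to 150 bp before it (25.0%).

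The peaks were of moderate rank. Folds ran from 3.09 at EIF6 to 6.99 at EIF4A2 and -log10 q from 1.77 at EIF4B to 9.34 at IARS2. The highest percentile among the 33 peaks was 88.5, at IARS2, and 12 were above the median of their list: 7 of 12 in replicate 1, 1 of 13 in replicate 2 and 4 of 8 in replicate 3. In replicate 2, which named the most of these genes, the only such peak was that of EIF4A2. The median percentile was 56.0, 31.4 and 43.9 in replicates 1, 2 and 3. Over the 21 pairs of a gene and a library, the median percentile of the strongest peak was 46.4 by fold and 29.6 by -log10 q.

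**Figure D4:**
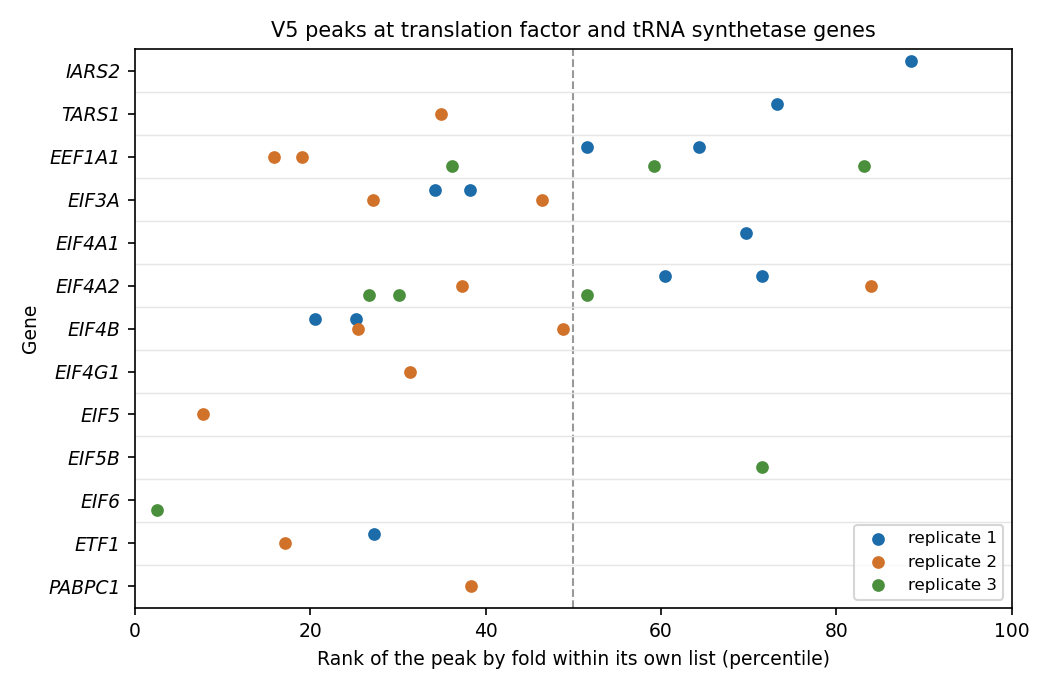
Rank of each of the 33 peaks by fold within its own list, as a percentile, for the 13 genes with a peak, with points coloured by V5 replicate and a dashed line at the median of a list. The peak of IARS2 in replicate 1 is the highest at 88.5 and that of EIF6 in replicate 3 the lowest at 2.5; replicate 2 has 1 point above the line, at EIF4A2.

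EEF1A1 and EIF4A2 are short genes, of 5.28 and 6.32 kb, and held 7 peaks each over the 3 libraries. By peaks per kb of window they stood 30th and 39th of 19987 protein-coding genes, with 0.961 and 0.841 peaks per kb. At least 2 separate peaks in each of at least 2 libraries were found at 4 of the 58 genes, EEF1A1, EIF3A, EIF4A2 and EIF4B, and at 1.05% of all protein-coding genes. The 58 genes held 33 peaks in 2.07 Mb of window, summed over the libraries, or 16.0 per Mb. All 19987 protein-coding genes held 4066 peaks in 1290 Mb, or 3.15 per Mb. Median spans were 22.0 and 24.1 kb, but the total window also depends on the longest genes, which the medians do not show. A ratio per Mb is therefore not a ratio per gene, and gene length was not adjusted for. The ratio of the 2 densities was 6.96 in replicate 1, 4.84 in replicate 2 and 3.80 in replicate 3, a mean of 5.20 ± 1.61 (SD, n = 3). Without EEF1A1 and EIF4A2, which gave 14 of the 33 peaks, the other 56 genes held 9.25 peaks per Mb, a ratio of 2.94 for the summed libraries, against 5.07 with them. For all 58 genes the ratio was 2.12 with a -log10 q of at least 5 and 2.98 among the strongest 1000 peaks of each list.

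Some of these genes have many processed copies elsewhere in the genome, whose reads can be hard to tell from those of the parent. The gene table lists 49 pseudogenes named for EEF1A1, 5 for EIF4A2, 12 for EIF4A1, 9 for EIF4B and 12 for PABPC1. None of these had a peak within 1000 bp in any library. Of the pseudogenes named for the other genes of the 58, only EIF2S2P5 had one, in 1 library, and its parent EIF2S2 had none. The share of all pseudogenes with a peak is not given here, so these counts cannot be set against it. How reads that match several places were treated is not given in the sources used here, so values at EEF1A1 are uncertain in this respect.

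The rest of the translation machinery and its control was scored the same way, with 80 further genes in 4 lists. A peak was present in any library at 4 of them (5.0%) and in at least 2 libraries at 1 (1.25%), set against the same 8.67% and 3.76% of all genes. Of 18 other synthetase genes and partners, RARS2 alone had a peak (replicate 3, fold 4.02, summit 26 bp before the start). None of 28 other initiation and termination factor genes and none of 10 mitochondrial translation factor genes had one. Of 24 genes of translation control and the amino acid response, LARP1, which encodes the protein that binds TOP mRNAs, had a promoter peak in replicates 1 and 3 (folds 3.81 and 4.69), with summits 294 and 377 bp before the start at the lower end of its span. A further LARP1 peak in replicate 3 (fold 4.46) lay inside the span, with its summit at -178 bp from another annotated start. DDIT3, a stress-induced transcription factor gene, had a peak in replicate 1 (fold 3.76), and PPP1R15B, a phosphatase subunit gene that restores eIF2, had 2 in replicate 1 (folds 4.98 and 5.23). ATF4, ASNS and the 4 eIF2 kinase genes had none.

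The promoter table gave 63 starts for 46 of the 58 genes. EEF1A2, VARS1, EIF3E, EIF3H, EIF2S2, PABPC1, AARS2, LARS1, VARS2, YARS1, EIF3A and EEF1D were not matched. Motifs were searched from 250 bp before to 50 bp after each start on both strands, except the pyrimidine run. The first 5 transcribed bases were all pyrimidines at 9 of these 63 starts (14.3%), against 4.93% of 22156 starts of protein-coding genes. The 9 genes were EEF1A1, EEF1B2, EEF2, EIF2S3, EIF3D, EIF3F, EIF4A2, EIF4B and QARS1. Of them EEF1A1, EIF4A2 and EIF4B had a peak, each in at least 2 libraries. Of the 37 other genes with a start, 8 had a peak and 2, TARS1 and ETF1, had one in at least 2 libraries. This comparison of starts with peaks was chosen after the values were seen. The share of all protein-coding genes with such a start that had a peak is not given here. Whether pyrimidine starts and peaks go together was not tested.

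TGATGNAA, the core of the element that ATF4 binds at amino acid stress genes, was present at 7 of the 63 starts (11.1%, against 2.7% of all). All 7 belonged to cytosolic synthetases, AARS1, CARS1, GARS1, IARS1, MARS1, NARS1 and TARS1, of 16 such genes with a start. TARS1 was the only one of the 7 with a peak. There the match, on the opposite strand, begins at the third transcribed base and is the end of the TARS1 sequence printed above, under both peaks. TATAAA was found at 6.35% of the 63 starts (against 9.46%), CCAAT at 41.3% (against 34.6%), GGGCGG, the GC box, at 66.7% (against 56.3%) and GGAAG, the core of the ETS site, at 77.8% (against 73.7%). Of the 11 genes with a peak and a start in the table, EIF4A2 alone had TATAAA. Only this exact string was searched, so related strings were not counted. The EEF1A1 sequence printed above holds tatataag, which begins as far before the start as the TATAAA of EIF4A2. A match is a string of letters and not a measured site.

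The 45 genes without a peak were mostly far from one. The nearest peak to their span was 4119 bp away at MARS1, a peak of fold 3.76 in replicate 1 that lay at the neighbouring gene DDIT3, and 9148 bp away at CARS1. The median distance was 137 kb and the largest 1460 kb, at EEF1B2, and 28 of the 45 had no peak within 100 kb. The same distances were not taken for other protein-coding genes without a peak, so these cannot be read as particular to the 45 genes. Just inside the rule, the peaks of IARS2, EIF5B, EIF4G1 and EIF5 lay 4, 9, 13 and 20 bp outside the span. No peak of these genes lay between there and the edge of the 1000 bp flank.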

How the data were processed

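Peaks of 3 V5 libraries were analysed, and the 3 controls entered no comparison. Per the submitters' processing notes the build was GRCh38. How reads were aligned, and which caller, cut-off and control made each list, is not given in the sources used here. The authors' fold is a linear ratio of a peak to their caller's background. The deposited -log10 p and q of each peak are the caller's own, and the -log10 q was used as a filter. The deposited score equalled the whole part of 10 times the -log10 q and was not used. Gene spans, starts and promoter sequences came from RefSeq (GRCh38.p14), with all 58 genes matched by symbol and starts for 15813 of the 19987 protein-coding genes. Fold percentiles were taken within each list. Coordinates are 1-based, and distances run from the start base.

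No test was made, since only 1 group has peak lists and the genes are a chosen list. Each count stands beside that of all protein-coding genes. The genes and lists were chosen with earlier results of these data known. Every gene with a peak was to be named, with each library's value where at least 2 libraries had one. The pairing of genes and peaks was tested on simulated data with 200 planted genes. Alternatives covered stricter peaks, other windows, the number and overlap of libraries, neighbouring genes and each replicate left out. Calculations used Python 3.11.15, numpy 2.4.6, pandas 2.3.3 and matplotlib 3.10.9.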

Additional observations from a re-analysis of the deposited data

How the results depend on the processing

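No paired analysis was possible because peak lists of only the V5 libraries were used. The number of genes with a peak in at least 2 libraries, 6, was the same with the gene span alone, 250 bp or 2000 bp beyond it, the summit inside the window or peaks that touch no other protein-coding gene. It was 3 with a -log10 q of at least 3 (5.17%, against 2.9% of all genes) and 1 with at least 5 (1.72%, against 1.91%). It was 2 with a fold of at least 5 and 2 among the strongest 1000 peaks (3.45%, against 2.04%, in both). It was 13 with a peak in any library, 2 in all 3, and 3 where peaks of 2 libraries had to overlap by 1 bp or by 50% of the shorter. It ran from 2 to 6 with each replicate left out. Without EEF1A1 and EIF4A2, chosen after seeing the data, it was 4. The number with a peak at the start in at least 2 libraries, 3, became 1, 0, 0 and 0 under the same 4 stricter sets of peaks, 10 with any library, 1 from 250 bp before to 50 bp after the start, and 5 within 2000 bp. It ran from 2 to 3 with each replicate left out. Genes with overlapping peaks, 3, became 0 with a -log10 q of at least 5, and 2 to 3 with each replicate left out. The density ratio of 5.07 fell to 2.12 with a -log10 q of at least 5, 2.98 among the strongest 1000 peaks and 2.94 without EEF1A1 and EIF4A2, and was 4.39 to 5.67 with each replicate left out. The median percentile of the strongest peak, 46.4, was 29.6 by -log10 q. The further genes of the pathway with peaks in 2 libraries numbered 1, and 0 to 1 with each replicate left out, since LARP1 needs replicates 1 and 3. The unknown depth limits what a missing peak shows.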
